A study of Mus musculus with 7 samples.

Results

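Aldh1a1, Gstm1, Gstm3 and Gstm7 are 4 genes for enzymes that clear aldehydes and other reactive compounds. They were taken by symbol from the 769 gene models of the authors' deposited table, which compares bone marrow megakaryocyte progenitors of old and young mice. All 4 genes were found, each as 1 gene model, and the authors' deposited table gives each a higher mean in old than in young, from 3.70-fold for Gstm7 to 14.8-fold for Aldh1a1. They were chosen by their group means, fold changes and adjusted p in this very comparison, so those values are a description and support no claim of their own.

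Megakaryocyte progenitors are marrow cells that give rise to megakaryocytes and through them to platelets. The young group has 3 RNA-seq libraries from mice aged 3 months and the old group has 4 from mice aged 18 to 20 months (one label gives 20 months). All mice came from a cross of Flt3-cre with the mTmG reporter, which marks for good any cell whose lineage once expressed the Flt3-driven recombinase, so Cre and reporter are shared by both ages. Cells were sorted as Lin-cKit+Sca1-CD150+CD41+, from Tom+ or GFP+ fractions. The series design text calls the mice WT, the strain label is C57BL/6, and 1 old library is labelled C57BL/7. The old titles carry 2 prefixes with 2 libraries each and the young titles carry another. No label explains the prefixes, so age and the kind of title cannot be told apart. No label says whether libraries came from separate mice, and the authors' errors may then cover technical spread only.

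Aldehyde dehydrogenases oxidise aldehydes to acids. Aldh1a1 acts on retinaldehyde, which makes it a source of retinoic acid, and on aldehydes from lipid peroxidation. The aldehyde dehydrogenase activity of whole cells, not that of Aldh1a1 alone, is widely used to sort blood-forming stem cells. Glutathione S-transferases couple glutathione to electrophiles so that these can be exported. Gstm1, Gstm3 and Gstm7 belong to the mu class, a family of close copies that lie side by side in the genome. Many genes of both families are known targets of NRF2, the transcription factor of the oxidative stress response.

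The mu-class copies are shown first as sequence, because their likeness bears on how far each value belongs to 1 gene. In GENCODE M21 (GRCm38, the assembly also named mm10) the 7 mu-class genes fill 149 kb of chromosome 3, with 6 of them on the minus strand. Gstm7 lies at chr3:107926334-107931817, Gstm3 at chr3:107963696-107969283, Gstm2 at chr3:107981702-107986453 and Gstm1 at chr3:108012255-108017973. The main transcript of each has 8 exons and a coding sequence of 654 bases. Coding positions 193 to 282 (from 1 at the A of the start codon) are the 90 bases most alike in Gstm1, Gstm2, Gstm3 and Gstm7, with capitals at the 10 positions where the 4 differ:
Gstm1: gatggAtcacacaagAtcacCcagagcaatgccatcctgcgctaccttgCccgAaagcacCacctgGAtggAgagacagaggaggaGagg
Gstm2: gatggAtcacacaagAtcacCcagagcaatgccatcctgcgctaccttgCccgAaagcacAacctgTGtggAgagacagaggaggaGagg
Gstm3: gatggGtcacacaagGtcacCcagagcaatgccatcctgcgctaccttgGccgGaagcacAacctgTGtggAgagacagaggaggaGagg
Gstm7: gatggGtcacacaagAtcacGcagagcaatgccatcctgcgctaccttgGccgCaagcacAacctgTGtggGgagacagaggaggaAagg

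Positions 302 to 391 are the 90 bases least alike, with capitals at the 37 positions that differ. Reads from this stretch can be assigned to 1 of the 4 genes more easily:
Gstm1: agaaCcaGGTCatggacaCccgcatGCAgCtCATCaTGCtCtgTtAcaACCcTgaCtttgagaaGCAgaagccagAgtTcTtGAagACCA
Gstm2: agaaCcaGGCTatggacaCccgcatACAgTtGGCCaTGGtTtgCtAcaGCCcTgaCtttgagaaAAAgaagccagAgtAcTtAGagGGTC
Gstm3: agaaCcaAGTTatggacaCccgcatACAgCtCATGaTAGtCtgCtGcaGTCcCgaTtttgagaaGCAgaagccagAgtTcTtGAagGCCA
Gstm7: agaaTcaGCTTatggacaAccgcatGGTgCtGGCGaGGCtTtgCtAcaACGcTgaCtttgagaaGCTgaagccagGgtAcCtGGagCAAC

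Over the whole coding sequence 74.2% of positions carried the same base in these 4 genes. Gstm1 and Gstm3 were the most alike pair of the 4, at 89.4% identity. Gstm7 was 82.6% identical to Gstm1 and 82.0% to Gstm3. Gstm1 and Gstm3 also share an unbroken run of 112 bases, at coding positions 389 to 500 of both, shown once because reads from inside it fit both genes equally:
Gstm1 and Gstm3: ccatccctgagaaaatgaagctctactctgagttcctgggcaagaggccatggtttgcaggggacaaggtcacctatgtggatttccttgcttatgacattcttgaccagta

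The genes differed in how much of their transcripts another gene can also produce. Of all distinct 50-base stretches in the annotated transcripts of Gstm3, 28.8% occurred in a transcript of another gene. The figure was 18.9% for Gstm1 and 0.532% for Gstm7. For Gstm3 the partners with the most shared stretches were the processed pseudogene Gm8834 (16.0%), the processed pseudogene Gstm2-ps1 (11.0%) and Gstm1 (9.83%). For Gstm1 they were Gstm2-ps1 (14.1%) and Gstm3 (8.16%). Gstm7 shared no 50-base stretch with any of the mu-class genes. At 100 bases the shares fell to 13.8% for Gstm3, 5.86% for Gstm1 and 0 for Gstm7. Gstm6 shared 6.02% of the 50-base stretches of Gstm3 and 2.15% at 100 bases, where Gstm1 shared 1.65%. The longest coding run of Gstm3 in common with another mu-class gene, 125 bases, was also with Gstm6. No label gives the read length or how reads with several matches were counted, and the effect of sharing on the counts was not tested. The values of Gstm1 and Gstm3 are therefore uncertain as values of 1 gene, Gstm3 having the larger shared part.

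**Figure D1:**
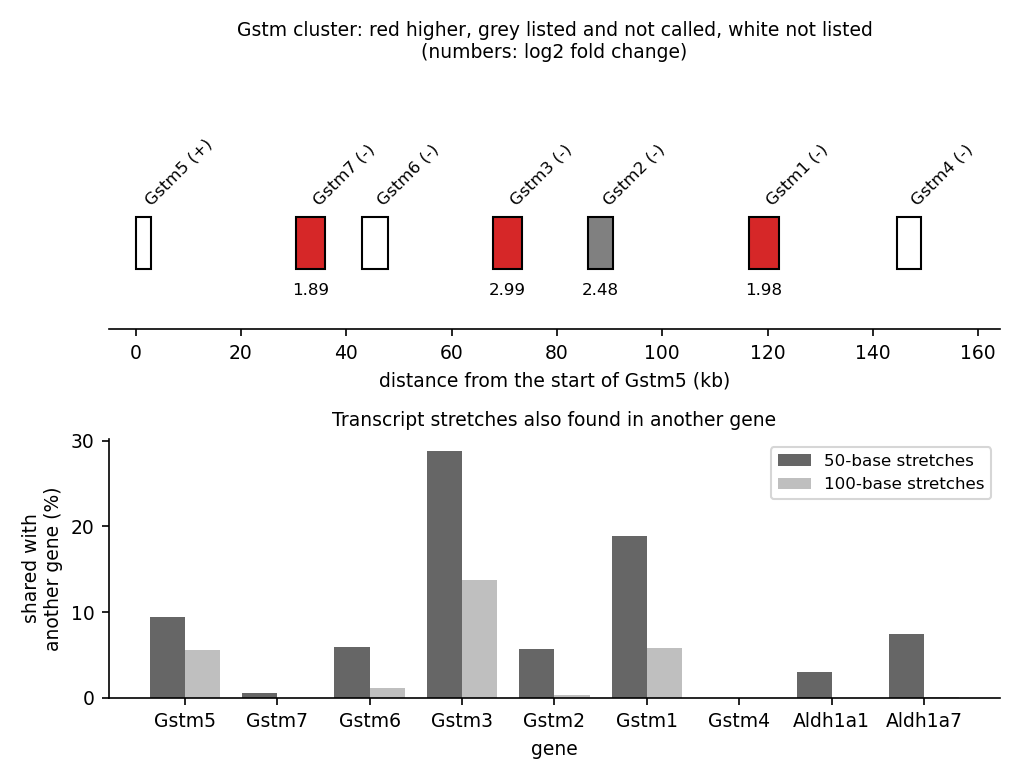
Top: the 7 mu-class genes to scale by distance in kb from the start of Gstm5, with strand, the authors' log2 fold change (old over young) below the listed genes, red for called higher, grey for listed and not called, white for not listed. Bottom: percent of distinct 50-base and 100-base transcript stretches of each gene that also occur in another gene; Gstm3 stands highest at 28.8% and 13.8%, and Gstm7 is at 0.532% and 0.

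Aldh1a1 lies apart from this cluster, at chr19:20492715-20643465 on the plus strand, and its main transcript in GENCODE M21 has 16 exons. Its nearest copy is Aldh1a7, at chr19:20692953-20727562 on the minus strand, 49.5 kb away. The coding sequences are 91.6% identical over 1503 bases. Their 90 least alike bases, positions 310 to 399, are shown because they mark where the copies can be told apart, with capitals at the 19 differing positions:
Aldh1a1: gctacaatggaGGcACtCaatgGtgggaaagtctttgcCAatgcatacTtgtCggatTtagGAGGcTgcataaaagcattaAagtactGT
Aldh1a7: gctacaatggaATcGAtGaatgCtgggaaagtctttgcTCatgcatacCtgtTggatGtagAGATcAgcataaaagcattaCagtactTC

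Despite this likeness, 3.06% of the 50-base stretches of Aldh1a1 transcripts occurred in another gene, all of them in Aldh1a7, and 0.0203% of the 100-base stretches did. Aldh1a7 is not listed in the authors' deposited table and has no value here.

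The values in the deposited table are group means of normalized counts, which are read counts scaled for library depth. No value per library is held, so the spread within a group and any overlap between the groups cannot be shown, and library depths are unknown. The error of each fold change is the authors' standard error (SE). A gene model is called higher or lower in old when the authors' DESeq adjusted p is under 0.05. Of 11778 gene models in the authors' adjustment 302 were called higher, which is 2.56%, and 1.57% were called lower (4.13% in either direction). All 4 genes were called higher; since the calls chose them, nothing is read from that count. The table holds only gene models with an adjusted p under 0.1, so a gene that is absent from it may be unchanged, undetected or changed with too large an error.

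For Aldh1a1 the authors' deposited table gives a mean of 129 normalized counts in young and of 1909 in old. That is a log2 fold change of 3.89 (SE 0.49), or 14.8-fold, with a 95% interval from the SE of 7.61-fold to 28.8-fold. Its adjusted p, 6.06e-12, ranked 4 among the 769 listed gene models in the authors' deposited table. Of the 302 higher calls 67 had a log2 fold change at least as large, counting Aldh1a1 itself. Of these 67 only 5, again with Aldh1a1, had a young mean as high as its own. Among the 111 other listed gene models whose young mean lay within 2-fold of that of Aldh1a1, 104 had a smaller log2 fold change in the authors' deposited table. Gene models that fell in old count as smaller here. Aldh1a1 was chosen by these same values, so its place among them is a description only.

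Gstm1 had a mean of 367 normalized counts in young and 1443 in old (log2 fold change 1.98, SE 0.47, adjusted p = 0.00278), per the authors' deposited table. The ratio was 3.93-fold, with an interval of 2.08-fold to 7.42-fold. For Gstm7 the authors' deposited table has 52.2 in young and 192 in old (log2 fold change 1.89, SE 0.51, adjusted p = 0.0115), a 3.70-fold ratio with an interval of 1.86-fold to 7.37-fold.

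Gstm3 was scarce in both groups. Its mean was 3.55 normalized counts in young and 27.5 in old in the authors' deposited table (log2 fold change 2.99, SE 0.91, adjusted p = 0.0348). The 7.93-fold ratio has an interval of 2.29-fold to 27.5-fold, the widest of the 4 genes. With 10 added to both means the log2 ratio was 1.47. Gstm3 is also the gene of the 4 with the largest share of sequence in common with others, including Gstm1. The Gstm1 mean was far larger in both groups, at 367 in young and 1443 in old. The effect of sharing on the Gstm3 value was not tested.

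The neighbouring Gstm2 fell just outside the limit for a call. The authors' deposited table lists it with 174 for young and 967 for old (log2 fold change 2.48, SE 0.82, adjusted p = 0.0579). It gained a call when all fold changes were recentred on the abundant listed gene models, which took the mu-class count to 4. Gstm3 at 0.0348 is the mu-class gene just inside the limit. Gstm4, Gstm5 and Gstm6 are not listed. Of the 7 mu-class genes 3 were called higher and none lower, with a median log2 fold change of 1.98 over those called, against 2.37 over all 302 higher calls in the authors' deposited table; these 3 are the genes under study, so their count carries no further weight.

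**Figure D2:**
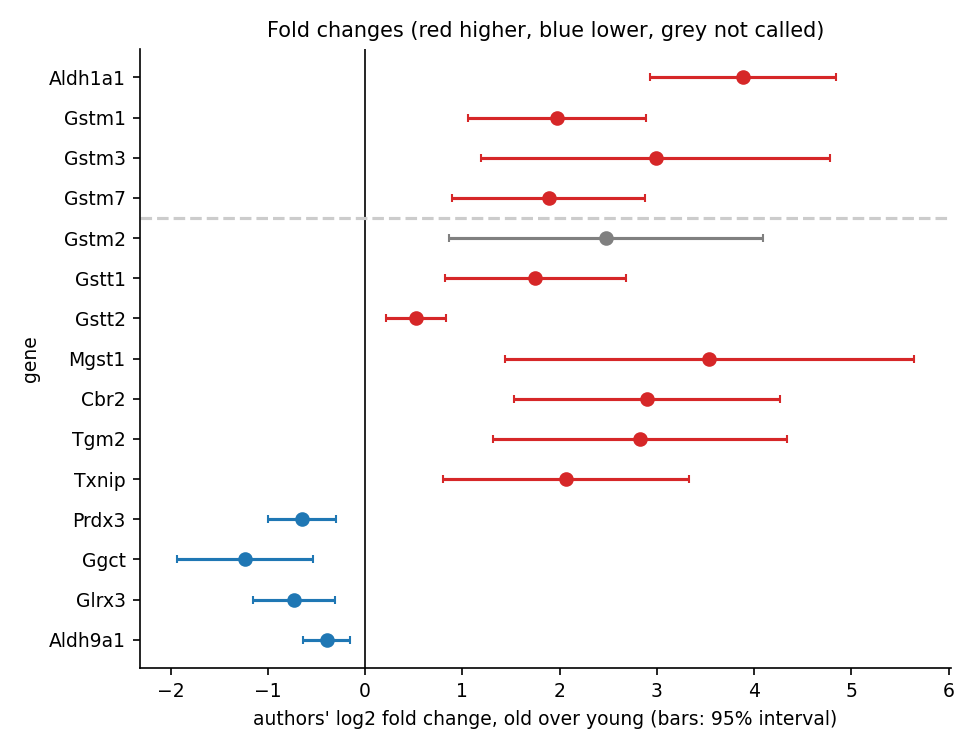
Authors' log2 fold change, old over young, of the 4 genes (above the dashed line) and of the other listed genes of the aldehyde, glutathione, retinoid and antioxidant lists, with bars of the 95% interval; red is called higher, blue lower, grey not called. Aldh1a1 stands at 3.89 and the bars of Gstm1, Gstm3 and Gstm7 overlap widely.

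The intervals of the 3 Gstm genes overlapped, so their order by fold is not resolved. On the log2 scale Gstm1 ran from 1.06 to 2.89, Gstm7 from 0.90 to 2.88 and Gstm3 from 1.20 to 4.78. The interval of Aldh1a1, 2.93 to 4.85, began just above the upper ends of Gstm1 and Gstm7 and overlapped that of Gstm3. Whether the folds of 2 genes differ was not tested, since the deposited table gives no covariance between genes.

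Levels were compared between genes per kb of the main annotated transcript. Which transcripts these cells use is not known, so levels per kb and ratios between genes depend on that choice. In young the order of the level per kb was Gstm1 at 285, Gstm2 at 163, Aldh1a1 at 54.7, Gstm7 at 37.9 and Gstm3 at 2.71 normalized counts per kb, computed from the authors' deposited table. In old it was Gstm1 at 1119, Gstm2 at 909, Aldh1a1 at 810, Gstm7 at 139 and Gstm3 at 21.0 normalized counts per kb. The order was thus the same at both ages, while the ratio of Gstm1 to Aldh1a1 per kb went from 5.21 in young to 1.38 in old. Since the means carry no spread, whether neighbours in this order differ cannot be said. In bulk RNA a larger share of cells with the transcript and more transcript per cell cannot be told apart.

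**Figure D3:**
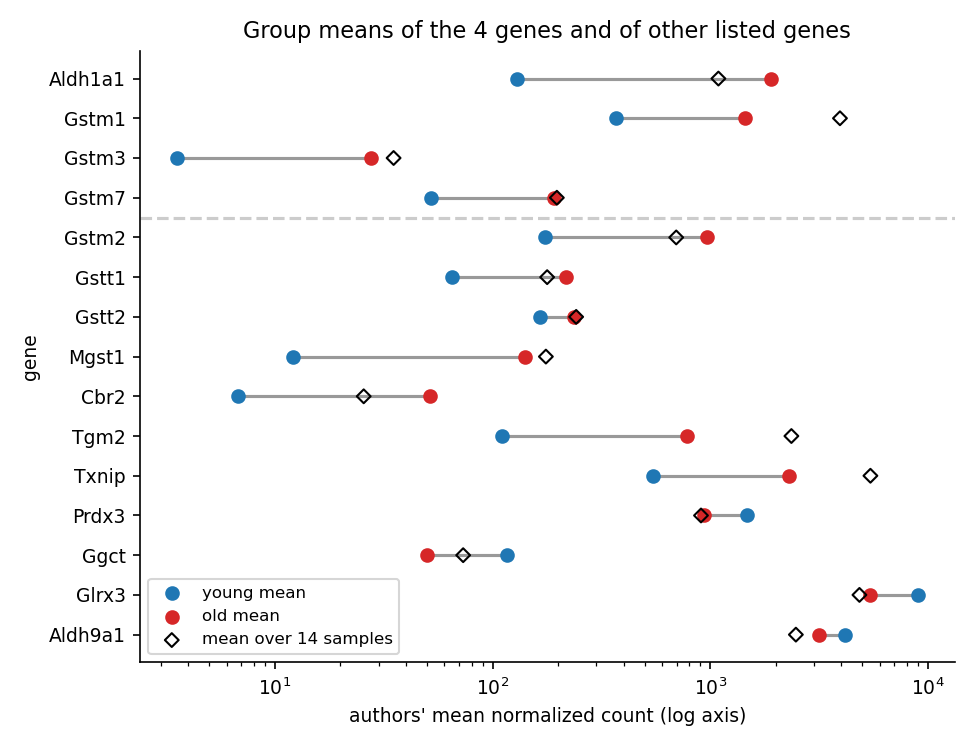
Authors' mean normalized count in young (blue) and old (red) and the mean over all 14 samples of the authors' fit (open diamonds), on a log axis, for the 4 genes (above the dashed line) and the other listed genes of the lists. The diamond of Gstm1 lies to the right of both of its group means, at 3940, and that of Aldh1a1 lies between them, at 1089.

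Among the listed gene models with both means above 0, those nearest to each gene in the plane of the log2 young and log2 old mean were named. For Gstm1 they were Pld3, Prtn3 and Grina, at distances of 0.028, 0.12 and 0.19 on the log2 scale. Prtn3, the neutrophil protease proteinase 3, has means of 395 (young) and 1498 (old) in the authors' deposited table. For Gstm7 they were Tcn2, a carrier protein of vitamin B12, with C1rl and Zfp942 (0.13 to 0.21). For Gstm3 they were the homeobox gene Hoxb2, the fatty acid transporter gene Slc27a6 and Epb4.1l3 (0.077 to 0.29). Aldh1a1 had the most distant neighbours of the 4, the stress-induced gene Nupr1, the leukocyte actin-bundling gene Lcp1 and the complement gene C1qc, at 0.72 to 0.77. Each distance rests on 2 group means only. Not all of these neighbours were called. By the authors' DESeq the adjusted p was 0.0811 for C1qc and Tcn2, 0.0783 for Epb4.1l3 and 0.0579 for Slc27a6.

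**Figure D4:**
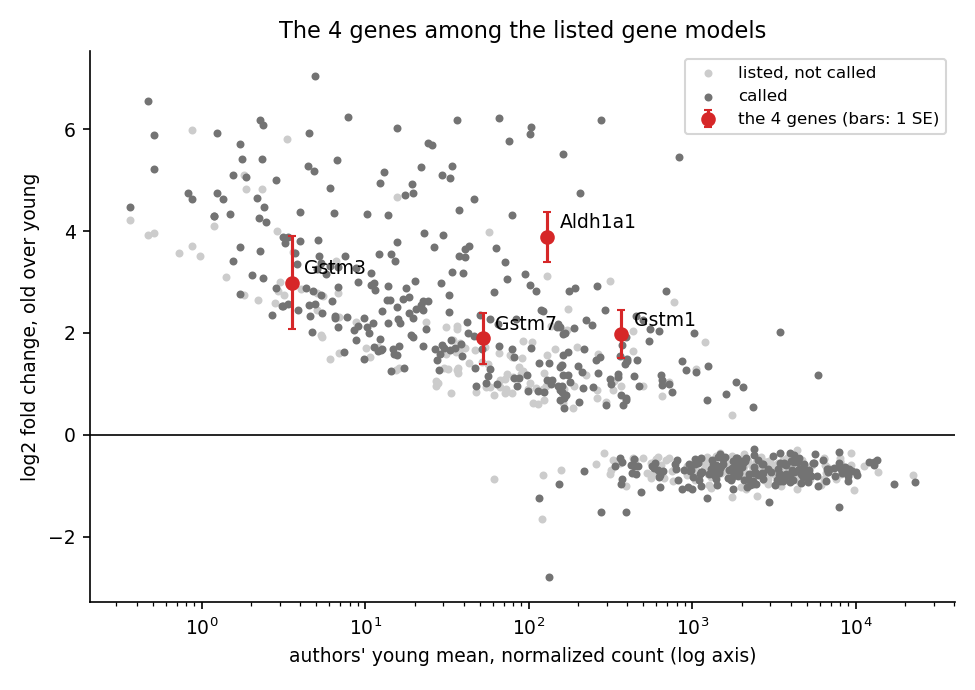
Authors' log2 fold change against the young mean (log axis) for the listed gene models with both means above 0; dark grey dots are called, light grey dots are not, and the 4 genes are red with bars of 1 SE. Aldh1a1, at a young mean of 129 and a log2 fold change of 3.89, lies above 104 of the 111 other gene models within 2-fold of its young mean. These 111 include gene models that fell in old. Gstm3, Gstm7 and Gstm1 lie inside the cloud.

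Beyond the mu class, 3 of 21 other glutathione transferase genes were called, all higher in old, beside 2.56% higher calls over all gene models; none of the 3 passed an adjusted p limit of 0.01. Per the authors' deposited table Gstt1, a theta-class transferase, rose from 65.2 to 218 normalized counts (log2 fold change 1.75, SE 0.47). In the authors' deposited table the microsomal transferase gene Mgst1 rose by a log2 fold change of 3.54 (SE 1.07, means of 12.1 and 141), and the theta-class gene Gstt2 by 0.52 (SE 0.16, means of 165 and 238). The median log2 fold change of the 3 was 1.75.

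Of 32 genes for glutathione synthesis, recycling and peroxidases none was called higher and 2 were called lower, beside 1.57% lower calls over all gene models. Both lower calls were lost at an adjusted p limit of 0.01, and 0 were left after all fold changes were recentred on the abundant listed gene models. Ggct, gamma-glutamylcyclotransferase of glutathione breakdown, fell in the authors' deposited table from 116 to 49.8 normalized counts (log2 fold change -1.24, SE 0.36). Glrx3, a glutaredoxin that takes part in iron-sulphur handling, fell in the authors' deposited table from 8968 to 5415 (-0.73, SE 0.21). The genes of glutathione synthesis, Gclc, Gclm and Gss, are not listed.

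Of 21 aldehyde dehydrogenase genes 1 was called higher and 1 lower, beside 2.56% and 1.57% over all gene models. The higher call is Aldh1a1, chosen by its call, so that count carries no weight. The 19 genes that are not listed have no value, so whether Aldh1a1 stands alone among them cannot be said. Aldh9a1, which oxidises aminoaldehydes, fell in the authors' deposited table from 4167 to 3170 normalized counts (log2 fold change -0.40, SE 0.12). Aldh2, the mitochondrial enzyme that clears acetaldehyde, is not listed. Of 30 alcohol dehydrogenase, aldo-keto and carbonyl reductase genes 1 was called, higher in old, beside 2.56% higher calls over all gene models. This was the carbonyl reductase gene Cbr2, at 6.76 in young and 51.4 in old in the authors' deposited table (log2 fold change 2.90, SE 0.70).

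Beside 2.56% higher calls over all gene models, 1 of 33 genes in the retinoid list was called. It was Tgm2, a transglutaminase known as a target of retinoic acid and abundant in macrophages, which rose in the authors' deposited table from 110 to 781 normalized counts (log2 fold change 2.83, SE 0.77). No gene for a retinol dehydrogenase, retinoid-binding protein or retinoic acid receptor on the list is in the table.

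Beside 769 of 11778 gene models listed in all, none of the 34 genes on the list of NRF2 regulators and targets is listed. Among the absent ones are Nqo1, Hmox1, Gclm and Txnrd1. The list was drawn up without mu-class or aldehyde dehydrogenase genes and holds Gsta4 and Gstp1 as its only transferases, so the count of 0 depends on that choice. Of 27 superoxide, peroxide and thiol antioxidant genes 2 were called, in opposite directions, beside 4.13% called in either direction over all gene models. In the authors' deposited table Txnip, an inhibitor of thioredoxin, rose from 547 to 2292 (log2 fold change 2.07, SE 0.65). Prdx3, the mitochondrial peroxiredoxin, fell in the authors' deposited table from 1467 to 937 (log2 fold change -0.65, SE 0.18). None of 19 Fanconi anaemia genes, which repair the DNA crosslinks that aldehydes cause, is listed, again beside 769 of 11778 in all. Over all 9 of these lists, the mu class and the aldehyde dehydrogenases included, 10 of 215 genes were called higher, 4 of which are the genes under study, and 4 were called lower. Without the genes under study 6 of 211 (2.84%) were called higher, beside 2.56% over all gene models. The 4 lower calls made up 1.86% of the 215 genes, beside 1.57% over all gene models. Whether each list gene was among the 11778 adjusted gene models was not checked. The shares of the lists and of all gene models thus have unlike denominators, and their closeness cannot be judged.

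The promoters were read from RefSeq's starts (GRCm38.p6), in the 250 bases before each of 7 annotated starts of the 4 genes. The core of the antioxidant response element, to which NRF2 binds (TGACNNNGC, both strands), stood in 1 of these 7 windows, against 10.2% of 32851 windows of all genes. The match lies before the inner one of 2 starts of Gstm7. It is downstream of the outer start and inside the annotated gene, which reaches to 107931817. Whether it overlaps an exon was not tested. It stands at chr3:107931725-107931753 on the minus strand, with the core in capitals:
Gstm7: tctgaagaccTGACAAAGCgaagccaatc

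The Aldh1a1 start at the shorter transcript is shown because Aldh1a7 carries nearly the same bases. The stretches are 90 bases long, from 100 to 11 bases before each start, at chr19:20601868-20601957 (plus) and chr19:20727567-20727656 (minus), with a CCAAT box (CCAAT) and an octamer (ATGCAAAT) in capitals; 84 of 90 bases are identical:
Aldh1a1: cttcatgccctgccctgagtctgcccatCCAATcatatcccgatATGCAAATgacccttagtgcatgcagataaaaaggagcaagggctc
Aldh1a7: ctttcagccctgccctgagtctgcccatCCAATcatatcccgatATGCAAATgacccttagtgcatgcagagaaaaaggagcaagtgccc

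Over both strands the octamer was present in 1.60% of all windows of 250 bases and the CCAAT box in 33.8%. These matches describe letters only.

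Some markers of other cell types were also called higher in the old group mean, most of them granulocyte and monocyte markers. Over all gene models 2.56% were called higher, the share to set beside each count below. The share was 60% of the granulocyte and monocyte list and 22.2% of the mast cell, basophil and eosinophil list. Lists with 2 or 3 calls rest on few genes. Of 25 granulocyte and monocyte markers 15 were called, all higher, and in the authors' deposited table the summed mean of the 17 listed ones was 5555 normalized counts in young and 97958 in old, with none at 0. Of 18 mast cell, basophil and eosinophil markers 4 were called higher (sum of 5 listed, 28.1 to 1453), and Prg3 was listed at 0 in young. The erythroid, lymphoid and plasma cell, and stroma and endothelium lists had 2 higher calls each, of 16, 17 and 16 genes, with sums over these 2 of 977 to 6431, 3.26 to 42.4 and 36.6 to 458. All these sums cover only genes listed for a low adjusted p, which fixes that they differ between the groups, and the 14, 15 and 14 other genes of the last 3 lists have no value. The part of other cells in the values of Aldh1a1, Gstm1, Gstm3 and Gstm7 was not tested. Of 20 megakaryocyte and platelet markers only Selp, for P-selectin of platelet granules, is listed, and it was called higher in the authors' deposited table (496 in young, 2358 in old, log2 fold change 2.25, SE 0.68, adjusted p = 0.0304 by the authors' DESeq). The cell type label could not be checked on the other markers. Stem cell and multipotency markers had 3 higher calls of 14 (sum of 5 listed, 1408 to 3708). Of 4 sort gate genes only Ly6a, for the Sca1 that the gate selected against, was called higher (23.5 in young, 98.8 in old, per the authors' deposited table). Its adjusted p of 0.0499 by the authors' DESeq lies at the edge of the limit, and the call was lost at 0.01. Slamf1, for CD150, is listed without passing. Both Ly6a and Slamf1 are also among the 5 listed stem cell and multipotency markers.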

How the data were processed

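The authors deposited 1 table of their own DESeq comparison. The submitters' processing notes name STAR, Bowtie2, DESeq and mm10, without versions or roles; the counting, strand setting and annotation are not stated there. Per the file headers it holds means of normalized counts (a scaled signal) for young, old and 14 samples, the log2 fold change with its standard error, a Wald score, and p-values before and after adjustment. The 14 samples exceed the 7 of this series, so the authors' spread may rest on others too, and the old column's name matches no single title. The fold change differed from the log2 ratio of means by at most 0.036 in the 4 genes.

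Members and gene lists were chosen with earlier results of these data known. No count model was fitted, because the deposited values are group means. The edgeR test planned for the case of counts per library was thus not run. Coding sequences were compared in place of the planned protein sequences. The 11778 adjusted gene models were recovered from p and adjusted p, a step tested on simulated data. Of the 215 gene symbols on the metabolic lists, Gsta13 and Akr1b1 matched no symbol in the gene references used here. The text names the 4 genes, called genes of the metabolic lists and the 3 gene models nearest each member. Transcripts came from GENCODE M21 and starts from RefSeq (GRCm38.p6); coding sequences were aligned globally with Biopython 1.88, and analyses used pandas 2.3.3 and SciPy 1.17.1. The CCAAT and octamer motifs were chosen after the sequences were seen.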

Additional observations from a re-analysis of the deposited data

Results flagged for a closer look

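The authors' mean over all 14 samples of their fit, which include samples beyond the 7 libraries described here, exceeded both group means for 3 of the 4 genes in the authors' deposited table. For Gstm1 it was 3940 normalized counts, 2.73 times the old mean and 10.7 times the young mean. For Gstm3 it was 35.1, which is 1.28 times the old mean. For Gstm7 it was 197, which is 1.03 times the old mean. For Aldh1a1, at 1089, it lay between the group means. Such an excess was common, since 211 of the 302 higher calls (69.9%) and 314 of all 769 listed gene models showed it. An overall mean more than 2 times the larger group mean, as in Gstm1, was seen in 143 of the 769. If the group means rest on 3 young and 4 old libraries, the other 7 samples averaged 6898 for Gstm1. Those samples were not analysed here.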

How the results depend on the processing

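The table has no value per library, so other count models, low-count filters, leaving out single libraries and separate fits by title prefix were not run. No paired analysis was possible because the deposited columns are group means and carry no replicate numbers. The log2 ratio of the deposited means, with 0 or 1 added, stayed within 1 SE of the deposited fold change for all 4 genes; with 10 added this held except for Gstm3 (1.47). At an adjusted p limit of 0.01 Gstm7 (0.0115) and Gstm3 (0.0348) lost their call, as did all but 139 higher and 41 lower calls. By Bonferroni adjustment Gstm1 (0.278), Gstm3 (1.0) and Gstm7 (1.0) did not pass, while Aldh1a1 did (2.42e-11). The limits on the mean used here apply to the mean over the 14 samples, which include samples beyond this series. Recentring all fold changes by 0.58, after the median of -0.58 in the 295 listed gene models with a mean of at least 1000, raised Aldh1a1 to 4.47, Gstm1 to 2.55 and Gstm7 to 2.47. That shift is taken from listed gene models only, 212 of the 295 with a negative fold change, so it moves the split by construction: 99.8% of calls were then higher against 62.0%, with 430 higher and 1 lower. Of the lists, at 0.01 the mu class kept 1 call; 0 were left of the other transferase, glutathione synthesis, retinoid, higher and lower antioxidant and lower aldehyde dehydrogenase calls. After recentring the mu class had 4 calls, with Gstm2 added, and 0 lower calls were left in the lists. At a mean of at least 50 the reductase list had 0 calls, since the mean of Cbr2 over the 14 samples is 25.6. The fewer calls at 0.01 follow from the limit itself; the mu-class count at a mean of at least 50 was 2.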
